A study of Mus musculus with 24 samples.

Results

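The genes described here are those named as nuclear-encoded subunits of the mitochondrial oxidative phosphorylation system. They were chosen by symbol alone, as genes named Nduf (complex I), Sdh (complex II), Uqcr (complex III), Cox4 to Cox8 with an isoform letter (complex IV) or Atp5 (ATP synthase), leaving out symbols that contain -ps. The rule took 86 of 55025 gene symbols, 40 of complex I, 4 of complex II, 8 of complex III, 17 of complex IV and 17 of ATP synthase. It does not match Cox4i1, a complex IV subunit, which is therefore not among them. It does match Cox6c2, Ndufa11b, Ndufb4c and Ndufs6b, which are annotated as processed pseudogenes and enter the counts, shares and medians below.

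RNA was sequenced from 24 libraries in 8 groups of 3. All mice were TCRα-/-, lacking the α chain of the conventional T cell receptor, and bore orthotopic pancreatic tumors grown from M8 organoids, so there is no group with an intact receptor and none without a tumor. Mice received vehicle or LCL161, a small molecule that mimics SMAC and antagonizes the ubiquitin ligases cIAP1 and cIAP2, at 75 mg/kg by mouth, on day 4 and then at intervals of 3 days for 3 doses, and tissue was taken on day 12. From spleen and from tumor, sorting took cells positive for CD45 and either CD4 or CD8, so each treatment has groups of CD4 and of CD8 cells from each tissue. The labels do not say that replicates came from separate mice, so p-values measure the spread between these samples, which may be technical.

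Oxidative phosphorylation is the last stage of respiration. Complex I takes electrons from NADH and complex II takes them from succinate, ubiquinone carries them to complex III, cytochrome c carries them to complex IV, and complex IV reduces oxygen to water. Complexes I, III and IV pump protons across the inner mitochondrial membrane, and ATP synthase makes ATP from their return. Complex II is wholly encoded in the nucleus, while the others combine nuclear subunits with subunits encoded by mitochondrial DNA. In T cells, activation is known to raise both glycolysis and respiration.

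Library totals ran from 15.5 to 25.1 × 1e6 counts. The sorts followed their labels, with summed levels of 3 CD4 lineage markers of 833 to 1630 CPM (counts scaled to a total of 1e6 per library) in the CD4 libraries against 11.2 to 38.7 in the CD8 libraries, and of 3 CD8 lineage markers of 1120 to 2400 against 74 to 232. The 12 T cell markers summed to 3110 to 8360 CPM, and markers of other cells were also present. The libraries of spleen CD4 LCL161 replicate 1 and tumor CD4 vehicle replicate 2 stood apart from their groups in the genes described. The former had the highest T cell marker sum of the 24 libraries (8360 CPM), and the latter had the highest sum of 12 monocyte and macrophage markers (6410 CPM) with the lowest T cell sum of its group (4560 CPM). For the treatment and tissue comparisons of CD4 cells, the median of all members is also given without the library that stood apart. Most other values that use these libraries are given with them only. Among these are correlations, medians by complex and of related gene lists, medians of CD8 against CD4 cells, and length splits. Counts of unadjusted p and counts by DESeq2 and limma voom are also given with them only. In bulk libraries, fewer cells of a type and less RNA per cell cannot be told apart.

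The members together took about 1% of all counts. In the 3 spleen CD4 vehicle libraries they held 0.98%, 1.11% and 1.00% of counts, and in the 3 spleen CD4 LCL161 libraries 1.42%, 1.08% and 1.18%. In spleen CD8 cells the vehicle libraries held 1.07%, 1.05% and 1.04% and the LCL161 libraries 1.23%, 1.27% and 1.39%. Every spleen CD8 LCL161 library was thus above every spleen CD8 vehicle library, while the spleen CD4 groups overlapped. In tumor CD4 cells the shares were 1.10%, 1.40% and 1.09% with vehicle and 1.26%, 1.18% and 1.18% with LCL161. In tumor CD8 cells they were 1.06%, 1.12% and 1.13% with vehicle and 1.21%, 1.10% and 1.27% with LCL161. Both pairs of tumor groups overlapped. The 95% Wilson interval of each share was at most 0.0106 percentage points wide, which covers counting error only, so the spread between libraries is far larger than counting error.

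**Figure D1:**
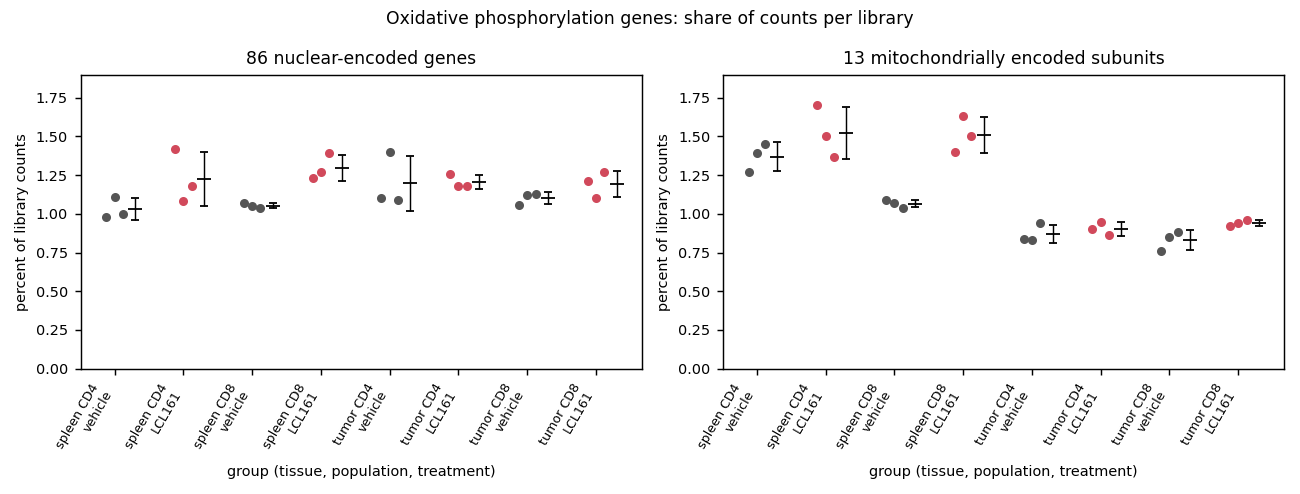
Percent of all counts in each library taken by the 86 nuclear-encoded members (left) and by the 13 mitochondrially encoded subunits (right), with vehicle libraries in grey, LCL161 libraries in red, and the group mean and SD as bars. The nuclear-encoded share was highest in spleen CD4 LCL161 replicate 1 (1.42%) and tumor CD4 vehicle replicate 2 (1.40%), and the mitochondrially encoded share was below 1% in every tumor library.

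Of the 86 members, 83 had enough counts to be tested. Cox7b2, a testis-restricted subunit isoform, and Cox8c had no count in any library, and Cox8b, the muscle form of subunit VIII, had 1, 2 and 2 counts in the spleen CD8 LCL161 libraries and 2 in tumor CD8 vehicle replicate 1. Levels per kilobase of merged exon, averaged over the 24 libraries, were highest for Atp5b, the catalytic β subunit of ATP synthase, at 684 CPM per kb. Next came Cox8a (501), Cox6a1 (476) and Atp5g3 (459 CPM per kb), of which Atp5g3 encodes the c subunit of the membrane rotor. The other c subunit genes were lower, at 96 CPM per kb for Atp5g2 and 25.1 for Atp5g1, although all encode the same mature protein. In complex II the order was Sdhb (158 CPM per kb), Sdha (127), Sdhd (122) and Sdhc (31.9). In complex III, Uqcrh stood at 261, Uqcrc1 at 201 and Uqcrfs1, the Rieske iron-sulfur protein, at 110 CPM per kb. In complex I the core subunits Ndufv1 (63.7) and Ndufs1 (26.6 CPM per kb) were below the accessory subunit Ndufa4 (222), which is now known to belong to complex IV. The tissue-restricted isoforms Ndufa4l2, Cox6b2 and Cox7a1 were lowest of the tested members named, at 1.28, 1.28 and 1.2 CPM per kb.

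Within groups the members moved together from library to library. The median correlation between members, taken over deviations of 24 libraries from their group means, was 0.64 over 3403 pairs. It was not taken over other genes or without the libraries that stood apart, so it is not shown to be particular to the members. Of the 83 members, 75 had a correlation above 0.5 with the mean of the others, as a description of libraries that share depth and composition. Sdha (-0.49), the flavoprotein subunit of complex II, and Ndufs1 (-0.62), the largest subunit of complex I, ran against the rest. Cox6a2 (0.01) and Cox6b2 (0.04) did not follow it. Across group means, Ndufa4l2 varied most, with a ratio of highest to lowest group mean of 92.6, then Cox6a2 (8.96), Cox6b2 (8.06), Cox7a1 (5.87), Ndufa4 (2.49) and Ndufv3 (2.10). No other tested member exceeded 1.82.

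**Figure D2:**
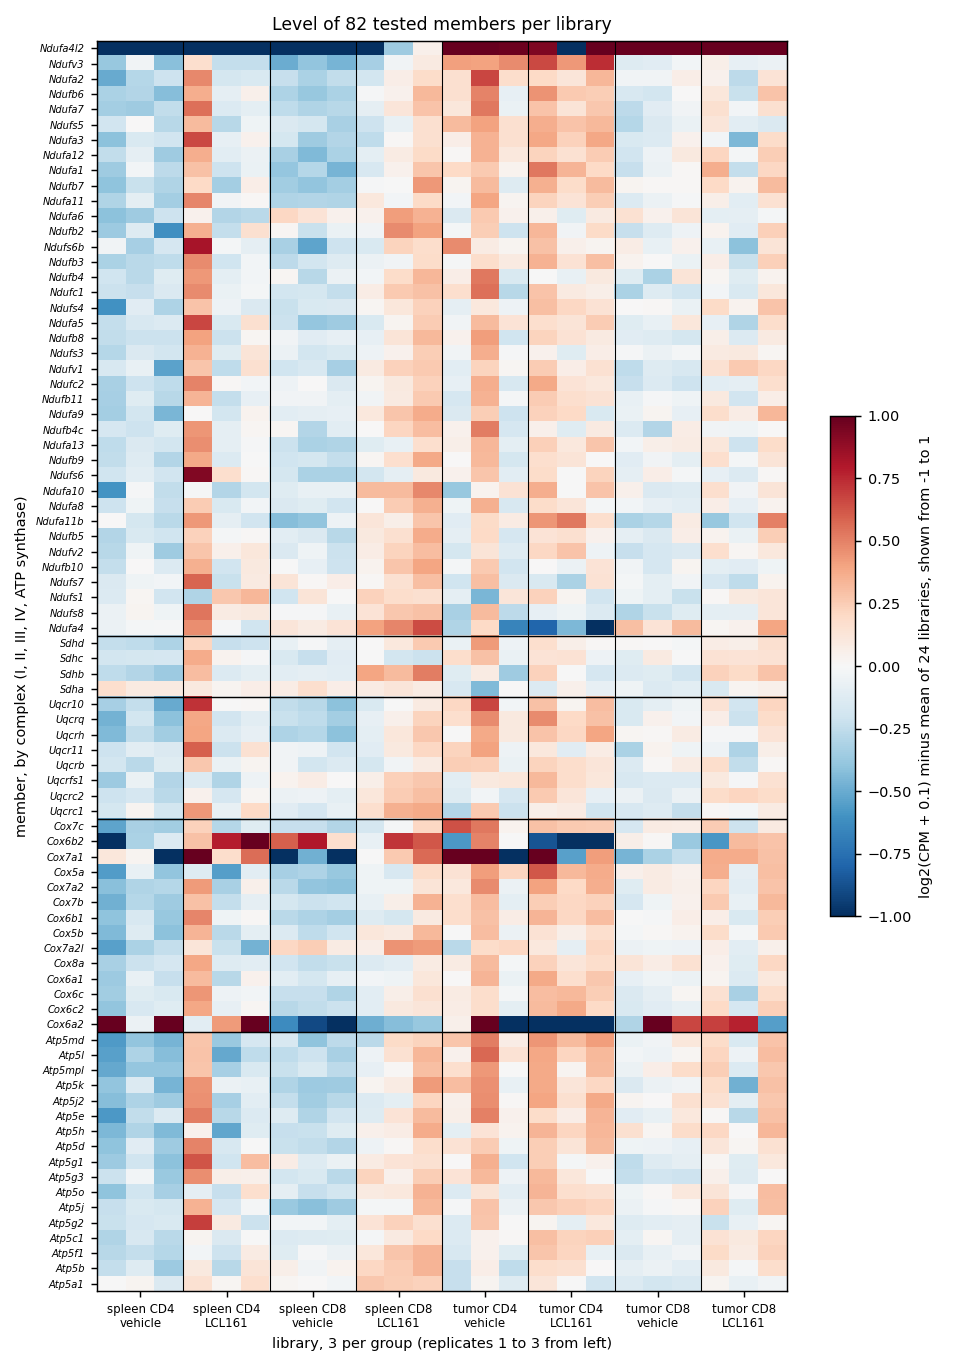
Level of 82 tested members (rows, by complex) in each of the 24 libraries (columns), as log2(CPM + 0.1) minus the member's mean over all libraries, with colour from -1 to 1. Most rows rise and fall together by library, while Ndufa4l2, Ndufa4, Ndufs1, Sdha, Cox6b2 and Cox6a2 depart from them within groups or between group means.

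Several promoters are shown because the members moved together and because nuclear respiratory factor 1 (NRF1), the ETS family factor GABP, YY1 and ESRRA are known regulators of these genes. RefSeq promoter windows (GRCm38.p6) of 200 bases, 170 before the start and 30 from it on, matched 67 members. The ETS core CCGGAAG, searched on both strands, was in windows of 15 of the 67 members, or 22.4%, against 8.38% of all genes with a window. The NRF1 core GCGCANGCG was in 18 members, 26.9% against 6.09%. The YY1 core AAGATGGCG and the ESRRA core TCAAGGTCA were each in 1 member, 1.49%, against 1.01% and 0.281% of all genes. A match is a stretch of letters and no measured binding. The windows below are from 4 of the 6 members that passed the test in spleen CD8 cells, all of which hold a motif. Ndufb5 also passed, holds none and is not printed. For contrast, Ndufv3 and Cox6b2, which hold none of the motifs, are shown. The windows printed therefore do not show that motifs go with the calls. Each is written 5′ to 3′ on the gene's strand, with motif matches in capitals.
Sdhb, chr4:140961101-140961300, plus strand: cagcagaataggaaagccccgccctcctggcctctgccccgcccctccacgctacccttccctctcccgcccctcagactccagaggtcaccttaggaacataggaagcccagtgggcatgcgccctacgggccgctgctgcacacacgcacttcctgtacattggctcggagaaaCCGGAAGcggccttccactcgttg
Uqcrh, chr4:116075041-116075240, minus strand: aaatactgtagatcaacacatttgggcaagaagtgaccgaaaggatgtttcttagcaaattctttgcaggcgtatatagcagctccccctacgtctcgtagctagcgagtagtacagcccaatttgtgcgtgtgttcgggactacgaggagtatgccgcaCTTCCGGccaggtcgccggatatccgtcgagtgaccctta
Ndufb7, chr8:83566588-83566787, plus strand: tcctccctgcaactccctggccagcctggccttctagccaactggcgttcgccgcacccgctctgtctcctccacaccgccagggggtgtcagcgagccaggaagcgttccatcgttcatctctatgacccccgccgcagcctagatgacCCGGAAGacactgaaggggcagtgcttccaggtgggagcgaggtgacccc
Atp5j, chr16:84834947-84835146, minus strand: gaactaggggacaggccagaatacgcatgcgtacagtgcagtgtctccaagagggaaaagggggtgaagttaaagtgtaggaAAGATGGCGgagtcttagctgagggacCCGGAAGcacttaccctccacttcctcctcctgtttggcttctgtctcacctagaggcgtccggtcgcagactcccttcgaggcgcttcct
Ndufv3, chr17:31519945-31520144, plus strand: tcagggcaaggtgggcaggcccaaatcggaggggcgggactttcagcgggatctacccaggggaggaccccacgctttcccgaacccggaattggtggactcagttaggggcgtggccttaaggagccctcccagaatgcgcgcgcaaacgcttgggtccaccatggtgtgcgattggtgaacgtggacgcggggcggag
Cox6b2, chr7:4753065-4753264, minus strand: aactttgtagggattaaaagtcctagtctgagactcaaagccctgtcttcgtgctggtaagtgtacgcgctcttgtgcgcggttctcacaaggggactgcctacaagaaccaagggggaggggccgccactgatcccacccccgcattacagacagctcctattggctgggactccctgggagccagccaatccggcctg
The Sdhb, Uqcrh and Ndufb7 windows each hold 1 ETS core, which in Uqcrh is on the opposite strand and reads CTTCCGG. The Atp5j window printed holds an ETS and a YY1 core. A second Atp5j window, at chr16:84835596-84835795, lacks both, and it is the one that includes the gene's annotated 5′ end (84835625). Ndufb5 holds none of the 4 motifs, and no window was matched to Uqcrc2.

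To ask what LCL161 did to these genes in the spleen CD8 sort, the treated and vehicle libraries were compared. In spleen CD8 cells, 6 of 83 members rose and none fell, with examples in complexes I, II and III and in ATP synthase. The 6 make 7.23% of the members, against a background of 8.33% of all genes that passed in either direction, so the share of members called was near the background. That was also so with DESeq2, which called 14 of the 82 members it gave an adjusted p (17.1%, background 15.9%), while limma voom called 70 of 83 (84.3%, background 35.4%). An unadjusted p under 0.05 was found for 43 members (51.8%, background 25.0%). The shift was broad and small. The median log2 fold change was 0.31 against 0.07 over all genes, and 81 members were above 0. In 64 members (77.1%) every LCL161 library exceeded every vehicle library, against 21.1% of all genes. By complex, the medians were 0.34 for complex I, 0.11 for II, 0.30 for III, 0.29 for IV and 0.31 for ATP synthase.

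In complex I, Ndufb7 and Ndufb5, accessory subunits of the membrane arm, rose. Ndufb7 stood at 85.1, 82.1 and 85.2 CPM with vehicle and 107, 108 and 146 with LCL161, 1.43-fold higher (log2 0.52 ± 0.14 SE, adjusted p = 0.0336, edgeR's quasi-likelihood test with Benjamini-Hochberg adjustment, as for all adjusted p below). Ndufb5 went from 70.5, 68.5 and 62.7 to 81, 84.7 and 98.1 CPM (log2 0.39 ± 0.11, adjusted p = 0.0421). Neither gene's groups overlapped. In complex II, Sdhb, the iron-sulfur subunit that passes electrons towards ubiquinone, had the smallest adjusted p. It stood at 165, 167 and 165 CPM with vehicle and 234, 221 and 254 with LCL161, 1.43-fold higher (log2 0.51 ± 0.12, adjusted p = 0.0171). Its partner Sdha stood at 385, 411 and 384 against 387, 399 and 387 CPM, with overlapping groups (log2 -0.01, adjusted p = 0.965), and Sdhc, a membrane anchor, had a log2 fold change of 0.03. The members of complex II therefore did not move as a block.

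In complex III, Uqcrh, the hinge protein near cytochrome c1, stood at 114, 116 and 106 CPM with vehicle and 132, 153 and 170 with LCL161 (log2 0.45 ± 0.13, adjusted p = 0.0412). Uqcrc2, a core subunit, went from 156, 157 and 152 to 176, 194 and 201 CPM (log2 0.29 ± 0.09, adjusted p = 0.0456). Both pairs of groups were separate. In ATP synthase, Atp5j, coupling factor 6 of the peripheral stalk, went from 160, 155 and 162 to 204, 204 and 259 CPM, 1.40-fold higher (log2 0.48 ± 0.13, adjusted p = 0.0328). Atp5j shares an antisense overlap with Gabpa, and as the sources used here do not say whether counting used strand, its reads cannot be told from that gene's. No complex IV member passed, and the highest were Cox7a1, the heart and muscle form of subunit VIIa, at 0.0447, 0.352 and 0.145 against 0.529, 0.658 and 0.834 CPM (log2 1.86 ± 0.74, adjusted p = 0.125) and, in complex I, Ndufa4l2 (log2 1.54 ± 0.95, adjusted p = 0.331). Atp5k, a small membrane subunit, followed at 0.53 ± 0.19 (adjusted p = 0.0854). The lowest was Cox6b2, the testis form of subunit VIb, at log2 -0.10.

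The 6 calls depend on single libraries. None of the 83 passed when vehicle replicate 1, 2 or 3 or LCL161 replicate 3 was left out, 3 passed without LCL161 replicate 2 and 7 without LCL161 replicate 1. Another cell type also moved in this comparison. The 10 conventional dendritic cell markers, none at 0, summed to 3050 to 3440 CPM in the vehicle libraries and 454 to 1530 in the LCL161 libraries. With log2 marker sums of B cells, conventional dendritic cells, monocytes and macrophages, and neutrophils as covariates, 0 of 83 members passed and the median was 0.50. As the dendritic cell sums did not overlap between treatments, this fit cannot separate treatment from them, and no conclusion is drawn from it. Of 22 cell cycle genes, 12 rose and none fell (54.5%, background 8.33%, median log2 fold change 1.02). The part of dendritic cells or of cell cycle genes in the members' shift was not tested.

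**Figure D3:**
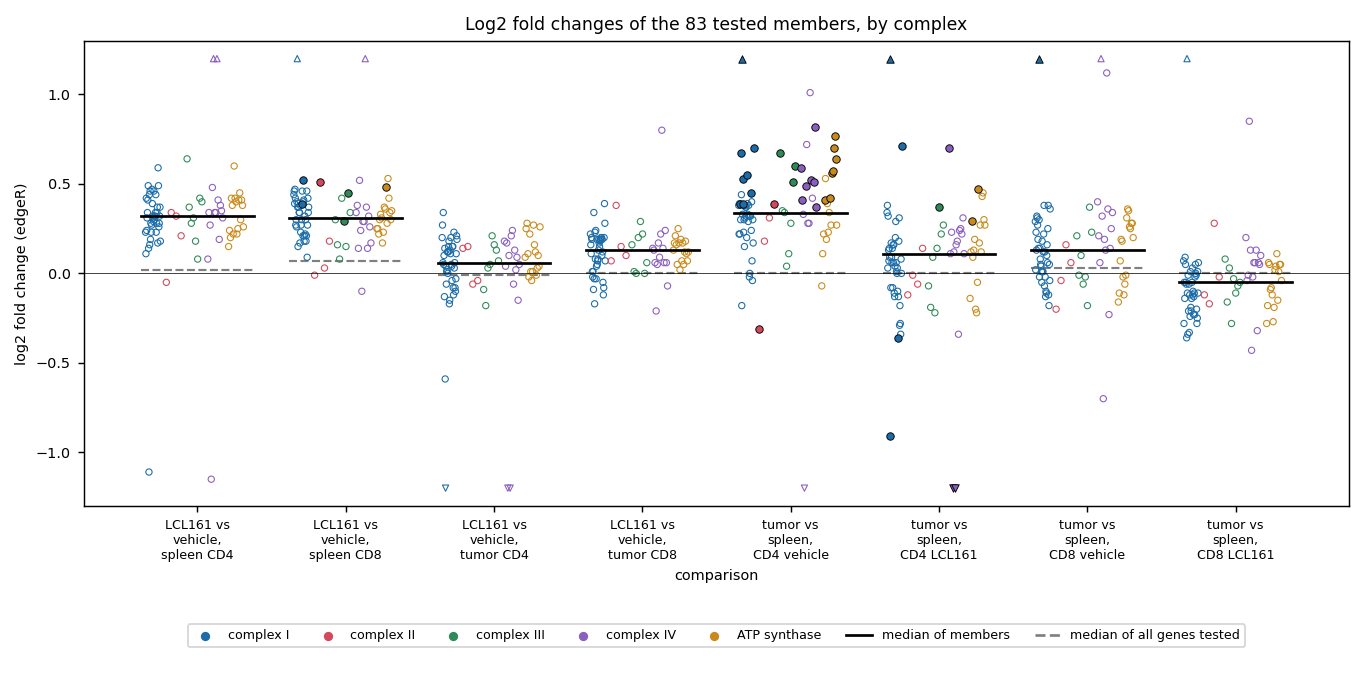
Log2 fold change of each of the 83 tested members in 8 comparisons, coloured by complex and filled where the adjusted p was below 0.05, with solid lines for the members' median and dashed lines for the median of all genes tested. Triangles stand for 15 values beyond the plotted limit of 1.2 either way, and the members' medians lie highest in tumor against spleen CD4 vehicle (0.34) and in LCL161 against vehicle in spleen CD4 (0.32) and spleen CD8 (0.31).

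In spleen CD4 cells, LCL161 gave a like median but no call. No member passed edgeR's test (0 of 83, background 0.436% of all genes), and limma voom also called 0 (background 0.0099%). DESeq2 called 5 of 82 (6.1%, background 3.91%), and 52 members (62.7%) had an unadjusted p under 0.05 against 16.0% of all genes. The median log2 fold change was 0.32 against 0.02 over all genes, 80 members were above 0, and 37 (44.6%) had every LCL161 library above every vehicle library, against 7.66% of all genes. The complexes were alike, with medians of 0.31, 0.26, 0.34 and 0.34 for I to IV and 0.38 for ATP synthase. Replicate 1 of the LCL161 group carried much of this, since without it the median was 0.16, though 38 members (45.8%) were then separate, against 12.0% of all genes, a check added after the data were seen. T cell markers summed to 4470 to 6260 CPM with vehicle and 5610 to 8360 with LCL161. In that order, 6 plasmacytoid dendritic cell markers summed to 532 to 2340 and 335 to 816. For 8 neutrophil markers the sums were 27.2 to 370 and 146 to 1250, and for 10 B cell markers 959 to 2460 and 796 to 1660. The 7 erythroid markers summed to 259 to 3790 CPM with vehicle and to 212, 489 and 11400 in LCL161 replicates 1, 2 and 3. None of these markers was at 0, and their part was not tested.

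The smallest p in spleen CD4 cells belonged to Cox6b2. It stood at 0.146, 0.595 and 0.686 CPM with vehicle and 0.96, 1.39 and 4.42 with LCL161, or 28 against 156 counts in all (ratio 4.81, 95% counting interval 3.2 to 7.48). The groups were separate, but the difference did not pass (log2 2.24 ± 0.57, adjusted p = 0.0833). Atp5g1, a c subunit gene (log2 0.60 ± 0.16, adjusted p = 0.0961), and Cox6b1, the common form of subunit VIb (0.48 ± 0.13, adjusted p = 0.0979), did not pass either. Uqcr10, a small complex III subunit, had 0.64 (adjusted p = 0.119) and Cox7a1 1.29 (adjusted p = 0.358). At the other end were Cox6a2, the heart and muscle form of subunit VIa, at -1.15 ± 0.58 (adjusted p = 0.339), Ndufa4l2 at -1.11 (adjusted p = 0.668) and Sdha at -0.05 (adjusted p = 0.811).

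In tumor CD4 cells no member passed between treatments (0 of 83, background 0.307%), and limma voom also called 0 (background 0.619%). DESeq2 called 2 (2.41%, background 4.23%), and 9 members (10.8%) had an unadjusted p under 0.05, fewer than the 14.1% of all genes. The median was 0.06 against -0.01 over all genes, and it was -0.03 without library scaling, where the median of all genes was -0.10, so its sign depends on the scaling. In 6 members (7.23%) all LCL161 libraries were above all vehicle libraries, against 7.19% of all genes. Without tumor CD4 vehicle replicate 2 the median was 0.21. The smallest p belonged to Atp5c1, the γ subunit that turns within ATP synthase (log2 0.28 ± 0.08, adjusted p = 0.121), Cox6a2 (-1.86 ± 0.60, adjusted p = 0.161) and Ndufa4 (-0.59 ± 0.21, adjusted p = 0.195). The 12 monocyte and macrophage markers, none at 0, summed to 2570 to 6410 CPM with vehicle and 779 to 1560 with LCL161, and their part was not tested. The covariate fit called 0 members, but it cannot separate treatment from sums that do not overlap.

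In tumor CD8 cells the members were also not called (0 of 83, background 0.247%), DESeq2 called 1 of 78 (1.28%, background 2.58%) and limma voom 3 (3.61%, background 3.46%). An unadjusted p under 0.05 was found for 7 members (8.43%), against 10.8% of all genes. The median was 0.13 against 0.00, and 73 members were above 0. In 25 (30.1%) the LCL161 libraries were all above the vehicle libraries, against 11.7% of all genes. The smallest p belonged to Uqcrc2 (0.29 ± 0.09, adjusted p = 0.214), Sdhb, at 162, 163 and 156 CPM with vehicle and 208, 203 and 217 with LCL161 (0.38 ± 0.12, adjusted p = 0.234), and Ndufv1, the NADH-binding flavoprotein (0.39 ± 0.13, adjusted p = 0.267). The Sdhb groups did not overlap. Monocyte and macrophage markers summed to 3140 to 3540 CPM with vehicle and 1510 to 1980 with LCL161.

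The size of the LCL161 effect was then compared between tissues and between populations. No member passed any of these differences in edgeR's test. For tumor minus spleen the background was 0.0099% of all genes in CD4 and 0.0247% in CD8 cells, and for CD8 minus CD4 it was 0.247% in spleen and 0.0% in tumor. Unadjusted p was under 0.05 for 12, 1, 1 and 0 members in that order, against 10.3%, 9.04%, 12.1% and 5.57% of all genes, and 12 members are 14.5%. DESeq2 called 1, 0, 0 and 0 (backgrounds 0.823%, 1.16%, 2.87% and 0.203%), and limma voom 0, 1, 0 and 0 (backgrounds 0.0099%, 4.27%, 2.79% and 0.0%). The members' medians were -0.27, -0.21, -0.03 and 0.05, against -0.06, -0.06, 0.04 and 0.02 over all genes, and for spleen CD8 minus CD4 the sign turned to 0.02 without library scaling. The CD4 median of -0.27 was -0.09 or -0.10 when the library that stood apart in spleen or in tumor was left out. The differences with the smallest p were those of Cox6b2 between tumor and spleen CD4 cells (-3.71 ± 0.82, adjusted p = 0.181) and between spleen CD8 and CD4 cells (-2.34 ± 0.78, adjusted p = 0.208).

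The comparison of tumor with spleen asked how these genes differ between tissues within a treatment. It uses the same libraries as the treatment comparisons, so these comparisons are not independent. In CD4 cells of vehicle mice, 26 of 83 members were higher in tumor and 1 was lower, against a background of 16.5% of all genes called in either direction. The 83 include Ndufa4l2, which was tested only through tumor libraries, so any call of it is not read as a result. Its values are described apart below. The median log2 fold change was 0.34 against 0.00 over all genes, and 76 members were above 0. In 52 members (62.7%) every tumor library exceeded every spleen library, against 16.9% of all genes. By complex, 8 of 40 members of complex I rose (median 0.32), 3 of 8 of complex III (0.35), 7 of 14 tested of complex IV (0.46) and 7 of 17 of ATP synthase (0.39), while in complex II Sdhd rose and Sdha fell.

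Ndufv3, a small subunit of the NADH-oxidizing module of complex I, stood at 75, 95.6 and 73.1 CPM in spleen and 130, 129 and 136 in tumor, 1.62-fold higher (log2 0.70 ± 0.13, adjusted p = 0.00135). Its tumor libraries were all above its spleen libraries. Sdhd, a membrane anchor of complex II, went from 126, 125 and 120 to 142, 200 and 144 CPM (0.39 ± 0.13), and Sdha from 411, 389 and 389 to 327, 269 and 366 CPM (-0.31 ± 0.09, adjusted p = 0.032). Both were separate between tissues, in opposite directions within 1 complex. In complex III, Uqcrq (0.60 ± 0.15), Uqcr10 (0.67) and Uqcrh (0.51 ± 0.13) rose, the last from 104, 119 and 111 to 141, 183 and 151 CPM. In complex IV, Cox7c, a small membrane subunit, went from 57.1, 65.9 and 64.7 to 128, 119 and 84.5 CPM, 1.76-fold higher (0.82 ± 0.16, adjusted p = 0.00174). Cox5a, from 124, 174 and 139 to 202, 245 and 212 CPM (0.59 ± 0.15), and Cox6b1 (0.49) also rose. In ATP synthase, Atp5md, a small subunit known to help hold enzyme dimers together, went from 51.1, 57.5 and 54.8 to 91.6, 108 and 79.8 CPM (0.77 ± 0.16), and Atp5l (0.70) and Atp5mpl (1.56-fold) rose as well. The catalytic subunits were not among them, with Atp5b at 1100, 1190 and 1010 CPM in spleen and 1110, 1360 and 1090 in tumor, and Atp5a1 at 879, 898 and 796 and 748, 897 and 802, both overlapping.

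This count too rests on single libraries, with 5 members called without tumor CD4 vehicle replicate 2, 4 without spleen CD4 vehicle replicate 1 and 10 without spleen CD4 vehicle replicate 3. Without the tumor library the median was 0.20, and 52 members (62.7%) were then separate, against 21.5% of all genes, a check added after the data were seen. Ndufv3, Cox7c and Atp5md passed whichever of the 6 libraries was left out. The calls of Sdha, Uqcrh, Uqcrq, Atp5l and Atp5mpl ended without tumor replicate 2 or spleen replicate 1, those of Cox5a, Cox6b1 and Uqcr10 also without spleen replicate 3, and that of Sdhd without tumor replicate 2 or any spleen library. Monocyte and macrophage markers summed to 211 to 889 CPM in spleen and 2570 to 6410 in tumor, 10 B cell markers to 959 to 2460 and 40.3 to 304, both lists with none at 0, and 6 fibroblast markers to 2.91 to 9.5 and 27.6 to 75, with Lum at 0 in tumor. With the marker covariates 0 of 83 members passed and the median was 0.92, but that fit cannot separate tissue from sums that do not overlap between tissues.

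In CD4 cells of LCL161 mice, 6 of 83 members were higher in tumor and 4 lower, against a background of 21.4%. The 83 again include Ndufa4l2, which was tested only through tumor libraries, so any call of it is not read as a result. The median was 0.11, or 0.00 without library scaling, where that of all genes was -0.11. Ndufv3 again rose, from 110, 83 and 83 to 155, 132 and 163 CPM (0.71 ± 0.13, adjusted p = 0.00091), and Cox5a went from 167, 125 and 170 to 282, 229 and 237 CPM (0.70 ± 0.15, adjusted p = 0.00267), both with separate groups. Atp5h (0.47), Uqcrfs1 (0.37 ± 0.10) and Atp5c1 (0.29 ± 0.08) also rose, but none of these 3 was called without spleen LCL161 replicate 2, nor Uqcrfs1 and Atp5c1 without tumor LCL161 replicate 1. Ndufa4 was lower, at 184, 132 and 116 CPM in spleen and 76.8, 97.5 and 55.3 in tumor, 0.531 of the spleen level (-0.91 ± 0.21, adjusted p = 0.00434), with no overlap. Cox6b2 stood at 0.96, 1.39 and 4.42 CPM in spleen and 0.376, 0.278 and 0.186 in tumor, 156 against 17 counts, a ratio of tumor to spleen of 0.124 (counting interval 0.0705 to 0.205; log2 -2.98 ± 0.59, adjusted p = 0.00172). Ndufv3, Cox5a, Cox6b2 and Ndufa4 passed whichever library was left out. Without spleen CD4 LCL161 replicate 1, 18 members passed and the median was 0.25. B cell markers summed to 796 to 1660 CPM in spleen and 34.1 to 101 in tumor, and monocyte and macrophage markers to 277 to 624 and 779 to 1560 CPM, with none at 0. With marker covariates 0 of 83 members passed, but that fit cannot separate tissue from these sums, which do not overlap between tissues.

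In CD8 cells of vehicle mice 1 of 83 members was called between tissues (background 14.9%), with a median of 0.13 against 0.03 over all genes. That member was Ndufa4l2, which reached the filter's minimum in 11 of 12 tumor but 1 of 12 spleen libraries, so its call is not read as a result. In 42 members (50.6%) every tumor library exceeded every spleen library, against 25.3% of all genes. DESeq2 called 5 (6.02%, background 18.0%) and limma voom 29 (34.9%, background 35.4%), and 15 (18.1%) had an unadjusted p under 0.05, against 28.0% of all genes. Uqcrh (0.37, adjusted p = 0.0617) and Ndufv3 (0.36 ± 0.13, adjusted p = 0.066) did not pass. Ndufv3 stood at 69.3, 74.3 and 70.8 CPM in spleen and 89.5, 90.2 and 96.1 in tumor, with separate groups. Conventional dendritic cell markers summed to 3050 to 3440 CPM in spleen and 368 to 465 in tumor, and T cell markers to 3110 to 3590 and 5500 to 6650. B cell markers summed to 840 to 1040 and 43.1 to 79.8 CPM, and monocyte and macrophage markers to 896 to 1280 and 3140 to 3540. None of these sums overlapped between tissues, and their part was not tested. In LCL161 mice 0 of 83 passed edgeR's test (background 8.81%), DESeq2 called 3 (3.61%, background 13.2%) and limma voom 13 (15.7%, background 20.7%). An unadjusted p under 0.05 was found for 6 members (7.23%), against 24.6% of all genes. The median was -0.05. With LCL161 the dendritic cell sums of spleen and tumor overlapped (454 to 1530 and 363 to 524 CPM). The T cell sums did not (3950 to 4840 and 5560 to 5900 CPM). Atp5a1, the α subunit of ATP synthase, stood at 1060, 1040 and 1030 CPM in spleen and 898, 835 and 856 in tumor, with no overlap and no call (-0.28 ± 0.09, adjusted p = 0.0522).

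Ndufa4l2 had the highest ratios of tumor to spleen. It encodes a relative of Ndufa4 that hypoxia-inducible factor is known to induce and that is known to restrain complex I. It lies at chr10:127514967-127517154 on the plus strand and overlaps Shmt2, a mitochondrial serine enzyme, on the other strand. It reached the filter's minimum, equal to 0.479 CPM, in 11 of 12 tumor but 1 of 12 spleen libraries, so it was tested only through the tissue where it is high, and its values are given as a description with no test. In CD4 vehicle cells it stood at 0.0485, 0.149 and 0.105 CPM in spleen and 4.29, 6.65 and 1.12 in tumor, 6 against 248 counts in all (ratio 37.8, 95% counting interval 17.1 to 104). In CD4 LCL161 cells it stood at 0.0457, 0.0409 and 0.0438 CPM, 1 count in each spleen library, and 1.08, 0.167 and 3.4 in tumor (3 against 99 counts, ratio 37.6, interval 12.5 to 185). In CD8 vehicle cells it went from 0.0447, 0.132 and 0.145 to 1.34, 1.87 and 1.27 CPM (7 against 105 counts, ratio 14.1, interval 6.61 to 35.9). In CD8 LCL161 cells it went from 0.0481, 0.384 and 0.54 to 2.27, 1.5 and 1.91 CPM (19 against 95 counts, ratio 5.96, interval 3.61 to 10.3). Its tumor libraries were above its spleen libraries in all 4 comparisons. Counting intervals leave out the spread between libraries. Shmt2 stood at 67.2, 69.2 and 66.7 CPM in spleen and at 74.9, 109 and 64 in tumor CD4 vehicle cells, where in tumor it had the same order as Ndufa4l2, and whether reads of these genes were shared was not tested.

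**Figure D4:**
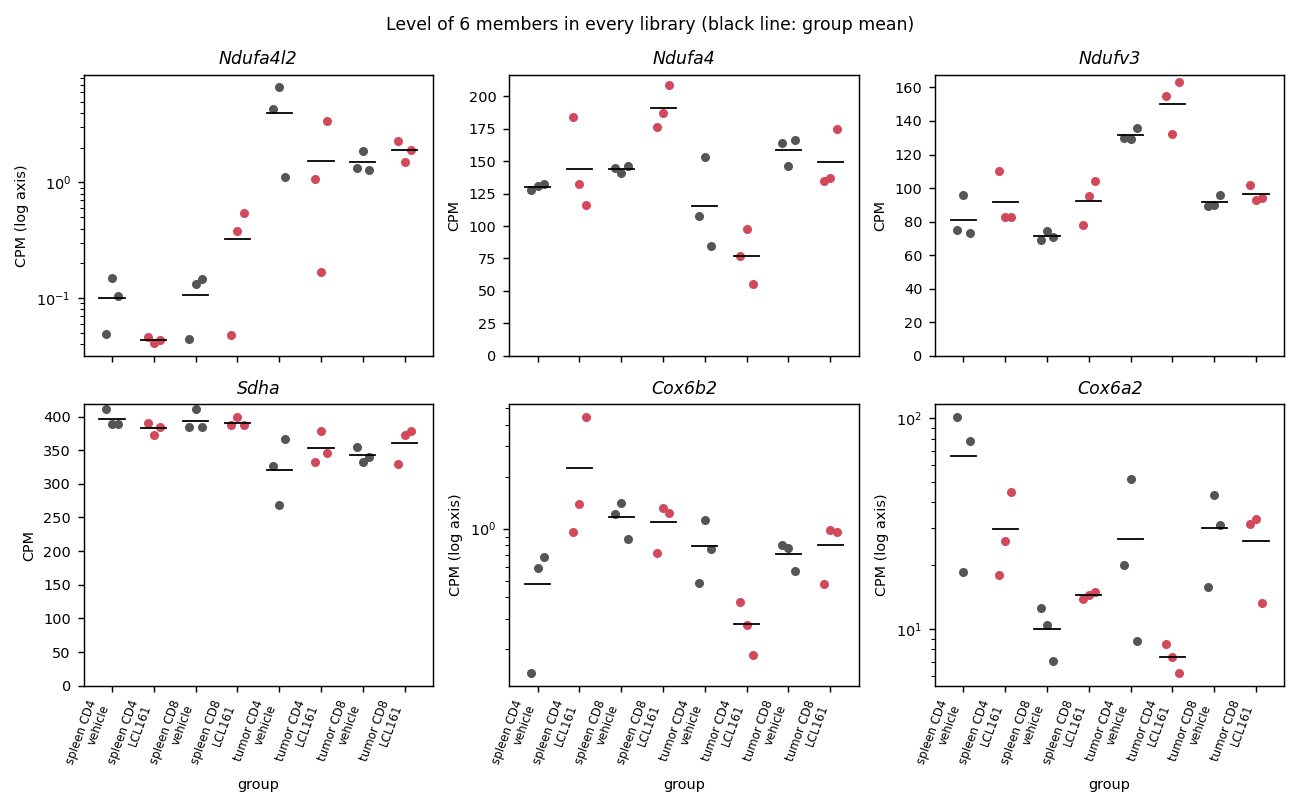
Level in CPM of 6 members whose pattern departs from the rest, in every library of the 8 groups, with vehicle in grey, LCL161 in red and the group mean as a line (Ndufa4l2, Cox6b2 and Cox6a2 on log axes). The mean of Ndufa4l2 is highest in tumor CD4 vehicle cells, that of Ndufv3 in tumor CD4 LCL161 cells, Ndufa4 is lowest in tumor CD4 LCL161 cells, and Cox6a2 runs from 18.7 to 101 CPM among the spleen CD4 vehicle libraries.

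CD8 cells were next compared with CD4 cells of the same tissue and treatment. In spleen the members' median was 0.06 with vehicle, against -0.04 over all genes, and 0.04 with LCL161, against 0.00. Without library scaling the vehicle median was 0.00, against -0.09 over all genes. In spleen vehicle cells 2 members were higher in CD8 and 1 lower (background 11.5%). Cox7a2l, a factor that joins complexes III and IV into supercomplexes, stood at 69, 80.4 and 85.2 CPM in CD4 and 116, 119 and 106 in CD8 cells (0.54 ± 0.15, adjusted p = 0.0247). Ndufa6 was higher as well, at 102 against 74.8 CPM on average (0.45 ± 0.12, adjusted p = 0.0185). Both were again higher in CD8 cells of LCL161 spleens, Cox7a2l by 0.49 (adjusted p = 0.0292) and Ndufa6 by 0.44 (adjusted p = 0.0159). In that comparison 7 members were higher and none lower (background 17.4%), among them Ndufa10 at 130 ± 8.74 against 90 ± 8.99 CPM (SD, n = 3 each; 0.53 ± 0.15, adjusted p = 0.017) and Uqcrfs1 (0.35, adjusted p = 0.0195). In vehicle cells the calls of both Cox7a2l and Ndufa6 ended without replicate 1 of either population, and that of Cox7a2l also without CD8 replicate 2. The count of 7 was 1 without spleen CD4 or spleen CD8 LCL161 replicate 2 and 0 without spleen CD8 LCL161 replicate 3. Conventional dendritic cell markers, none at 0, summed to 129 to 352 CPM in CD4 and 3050 to 3440 in CD8 vehicle cells, and to 95.5 to 206 and 454 to 1530 with LCL161. T cell markers summed to 4470 to 6260 CPM in CD4 and 3110 to 3590 in CD8 vehicle cells, and to 5610 to 8360 and 3950 to 4840 with LCL161. With marker covariates no member passed in either comparison, but that fit cannot separate population from dendritic cell sums that do not overlap.

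In tumors Ndufv3 and Ndufa4 were called between populations, and most members were slightly lower in CD8 cells without a call. With vehicle 1 member was called, lower in CD8 cells (background 4.12%). The median was -0.15 against -0.03 over all genes, and 9 members (10.8%) were above 0, against 46.6% of all genes. Ndufv3 stood at 130, 129 and 136 CPM in CD4 and 89.5, 90.2 and 96.1 in CD8 cells (-0.52 ± 0.13, adjusted p = 0.0281), with no overlap. It was not called without tumor CD4 vehicle replicate 1 or 2 or any of the 3 tumor CD8 vehicle libraries. With LCL161, 1 member was higher and 1 lower (background 2.93%). The median was -0.11 against -0.01 over all genes, and 18 members (21.7%) were above 0, against 48.6% of all genes. Ndufv3 was again lower, at 155, 132 and 163 against 102, 92.6 and 94 CPM (-0.64 ± 0.13, adjusted p = 0.0109). Ndufa4 was higher, at 76.8, 97.5 and 55.3 CPM in CD4 and 135, 137 and 175 in CD8 cells (0.96 ± 0.21, adjusted p = 0.0167), also without overlap. Leaving out tumor CD8 LCL161 replicate 3 ended both calls. Only 1 call was left without tumor CD4 LCL161 replicate 1 or 3 or tumor CD8 LCL161 replicate 2. Conventional dendritic cell markers summed to 98.9 to 401 CPM in CD4 and 368 to 465 in CD8 vehicle cells. With LCL161 they summed to 113 to 155 and 363 to 524 CPM, and their part was not tested.

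Cox6a2 varied together with markers of another cell type. In spleen vehicle libraries Cox6a2 was lower in CD8 than in CD4 cells, at 12.6, 10.4 and 7.08 against 101, 18.7 and 77.6 CPM (-2.71 ± 0.61, adjusted p = 0.00721), also when any 1 library was left out. Within the CD4 vehicle libraries Siglech, a marker of plasmacytoid dendritic cells, stood at 953, 194 and 640 CPM, in the same order as Cox6a2. The 6 markers of that cell type summed to 532 to 2340 CPM in the CD4 and 342 to 419 CPM in the CD8 libraries, with none at 0, and their part was not tested. Cox6a2 also overlaps Itgad on the other strand, which stood at 26.9, 8.82 and 40.6 CPM in the CD4 vehicle libraries. In CD4 LCL161 cells Cox6a2 was lower in tumor, at 8.45, 7.34 and 6.19 against 18.1, 26.2 and 44.8 CPM in spleen (-2.02 ± 0.61, adjusted p = 0.0235), and the plasmacytoid markers summed to 243 to 403 against 335 to 816 CPM. That call ended without spleen replicate 3 or any of the 3 tumor libraries.

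The partners of these genes encoded by mitochondrial DNA were lower in tumor than in spleen, and in CD4 vehicle cells this was opposite to the nuclear members. All 13 were tested. In CD4 vehicle cells 12 of 13 were lower in tumor (median log2 fold change -0.61), in CD4 LCL161 cells 13 (-0.81), in CD8 vehicle cells 6 (-0.45) and in CD8 LCL161 cells 12 (-0.65), with none higher. These are 92.3%, 100%, 46.2% and 92.3% of the 13, against backgrounds of 16.5%, 21.4%, 14.9% and 8.81% of all genes. The medians of the nuclear members in these comparisons were 0.34, 0.11, 0.13 and -0.05, so in CD8 LCL161 cells the signs were alike, and in CD4 LCL161 cells the nuclear median was 0.00 without library scaling. mt-Cytb, the catalytic cytochrome of complex III, stood at 1860 ± 94.2 CPM in spleen and 956 ± 112 in tumor CD4 vehicle cells (SD, n = 3 each; -0.96 ± 0.10, adjusted p = 1.36e-05), while the nuclear complex III members Uqcrh, Uqcrq and Uqcr10 rose. Leaving out 1 library left 10 to 12 lower in CD4 vehicle cells, 12 to 13 in CD4 LCL161, 4 to 8 in CD8 vehicle and 7 to 12 in CD8 LCL161 cells. With marker covariates 0 of 13 were called in each, with medians of -0.11, -0.16, -0.20 and -0.37. The B cell sums and the monocyte and macrophage sums did not overlap between tissues in any of these comparisons. That fit therefore cannot separate tissue from the markers, and no conclusion is drawn from it. With LCL161, 8 of 13 rose in spleen CD8 cells (61.5%, background 8.33%, median 0.43, 2 to 8 when 1 library was left out), the same direction as the nuclear members there. None was called in spleen CD4 (0.23), tumor CD4 (0.13) or tumor CD8 cells (0.19), where the backgrounds were 0.436%, 0.307% and 0.247%.

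Glycolysis differed between tissues by more. Of 16 glycolytic genes, 14 were higher in tumor CD4 vehicle cells (median 1.60), 14 in CD4 LCL161 (1.33), 11 in CD8 vehicle (0.78) and 9 in CD8 LCL161 cells (0.81), and none was lower. These are 87.5%, 87.5%, 68.8% and 56.2% of the 16, against backgrounds of 16.5%, 21.4%, 14.9% and 8.81% of all genes. Slc2a1, the glucose transporter GLUT1, stood at 301 ± 31.5 against 65.9 ± 6.98 CPM in CD4 vehicle cells (SD, n = 3 each; 2.19 ± 0.15, adjusted p = 8.21e-08). The members' median of 0.34 in that comparison was thus a small shift beside 1.60. Leaving out 1 library left 13 to 14 higher in CD4 vehicle, 14 in CD4 LCL161, 7 to 10 in CD8 vehicle and 5 to 9 in CD8 LCL161 cells. With marker covariates 0 of the 16 glycolytic genes were called in each of the 4 comparisons, with medians of 2.13, 1.41, 1.04 and 0.79. That fit cannot separate tissue from marker sums that do not overlap between tissues, and no conclusion is drawn from it.

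Of 13 regulators of mitochondrial biogenesis, Gabpb1, a β subunit of the ETS factor GABP, rose with LCL161 in 3 of 4 comparisons. It went from 44.3 ± 2.43 to 76.8 ± 5.72 CPM in spleen CD8 (0.79 ± 0.15, adjusted p = 0.00449), from 68 ± 10.1 to 118 ± 27.6 in tumor CD4 (0.80 ± 0.15, adjusted p = 0.0286) and from 52.3 ± 3.65 to 99.5 ± 11.7 in tumor CD8 cells (0.93 ± 0.15, adjusted p = 0.014; SD, n = 3 each). In spleen CD4 cells it went from 65.8 ± 5.02 to 102 ± 7.53 without passing (0.63 ± 0.15, adjusted p = 0.0625). Leaving out any 1 library kept the call in spleen CD8 cells. It ended in tumor CD4 cells without LCL161 replicate 1 or 2 or vehicle replicate 2, and in tumor CD8 cells without any library but LCL161 replicate 3. Esrra, a nuclear receptor of the same group of regulators, fell in spleen CD8 cells (-0.67 ± 0.16, adjusted p = 0.0169), but not without LCL161 replicate 3 or vehicle replicate 1 or 3. Among 49 assembly factors, Sdhaf1, which helps to insert the iron-sulfur clusters of Sdhb, rose with LCL161 in spleen CD4 cells, from 17.3 ± 1.29 to 51.5 ± 20.4 CPM (1.57 ± 0.27, adjusted p = 0.02). It was the only one called there (2.04%, background 0.436%), and was not called without LCL161 replicate 1 or vehicle replicate 1 or 3. In spleen CD8 cells 6 of the 49 rose and none fell (12.2%, background 8.33%), and there Sdhaf1 went from 12.4 ± 1.32 to 21.8 ± 2.37 without passing (0.82 ± 0.26, adjusted p = 0.0623). In tumor against spleen CD4 vehicle cells 4 rose and 1 fell, a share of 10.2% that was below the background of 16.5%. Ndufaf2, a complex I assembly factor, stood there at 11.4 ± 1.81 against 5.95 ± 0.803 CPM (0.93 ± 0.17, adjusted p = 0.000975).

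The relation of fold change to transcript length differed between comparisons. In tumor against spleen CD4 vehicle cells the rank correlation of fold change with merged exon length over 81 members was -0.40, and the median was 0.38 for 40 members up to 0.92 kb and 0.30 for 41 longer ones. Over all genes with a length it was -0.26, with medians of 0.33 for 652 genes up to that length and -0.05 for 13167 longer ones. In spleen CD4 cells the LCL161 medians of short and longer members were 0.38 and 0.31, and 0.25 and -0.03 for all genes, and in spleen CD8 cells short and longer members had 0.33 and 0.30, with 0.25 for short genes in general. In these comparisons short genes as a whole shifted in the same direction as the members. In the tumor the relation had the other sign for LCL161 against vehicle, with a rank correlation over the members of 0.27 in CD4 (medians 0.03 and 0.10) and 0.31 in CD8 cells (0.07 and 0.17), and it was 0.29 to 0.43 in the 4 comparisons of CD8 with CD4 cells. Over all genes it was 0.02 and -0.14 for LCL161 in tumor CD4 and CD8 cells. For CD8 against CD4 cells it was -0.02 and -0.10 over all genes in vehicle and LCL161 spleens, and 0.24 and 0.11 in tumors. The strongest relation over the members, in tumor against spleen CD8 vehicle cells, was -0.45, against -0.06 over all genes. The part of length in these shifts was not tested.

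**Figure D5:**
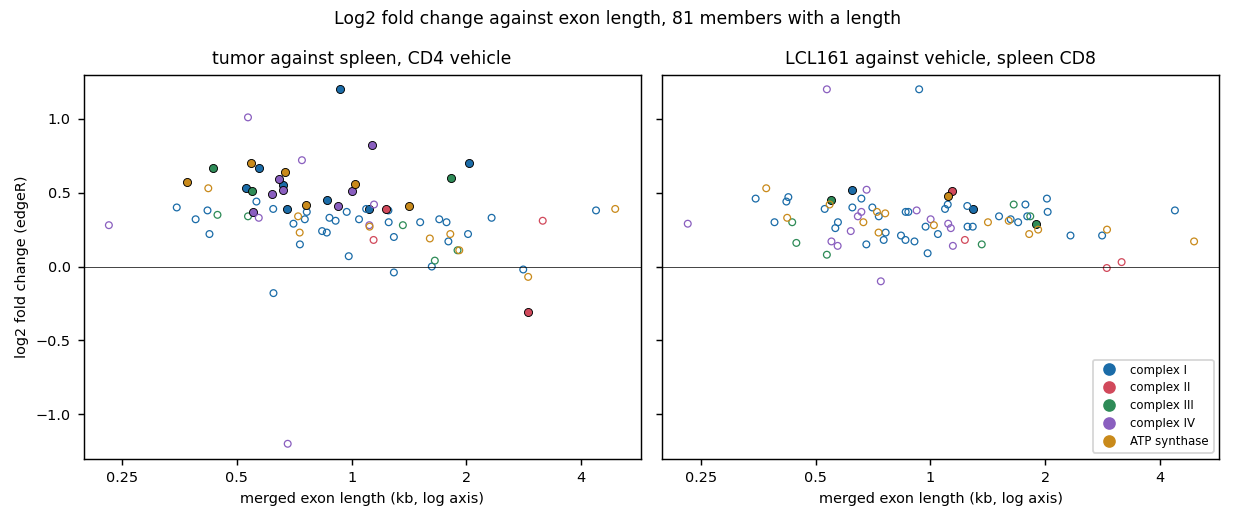
Log2 fold change of 81 members against merged exon length in kb (log axis), coloured by complex and filled where called, for tumor against spleen CD4 vehicle cells (left) and LCL161 against vehicle in spleen CD8 cells (right), with values past 1.2 drawn at 1.2. On the left shorter members lie higher on the whole (rank correlation -0.40), and Sdha is the called member below 0.

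Counts of some members are uncertain. An exon of 27 members overlaps another gene, and Cox6c2, Ndufa11b, Ndufb4c and Ndufs6b are annotated as processed pseudogenes, so that reads may be shared between near-identical copies. Of the deposited non-zero values, 52.7% are not whole, as estimated counts are where reads are divided among genes.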

How the data were processed

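RNA from 24 sorted-cell libraries was measured in 8 groups of 3, by tissue, population and treatment. Per the submitters' processing notes, adapters were trimmed with cutadapt, and STAR 2.7.3a aligned the reads to GRCm38. The authors deposited 1 table of expected counts per gene and library (55025 symbols, 38730 with a count). The tool that counted, its gene models and its use of strand were not given in the sources used here. Totals of 15.5 to 25.1 × 1e6 counts per library set the precision.

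Expected counts were rounded, genes kept by filterByExpr (minimum count 10, 20203 genes), libraries scaled by TMM (factors 0.94 to 1.05), and all libraries fitted together, 1 mean for each group, by the robust quasi-likelihood method of edgeR 4.0.16 (R 4.3.3, 16 residual degrees of freedom, common coefficient of biological variation 0.33). Benjamini-Hochberg adjustment ran over all genes within each comparison, with a threshold of 0.05. Errors of log2 fold changes are SE. Levels are CPM on scaled totals. Genes to which DESeq2 gave no adjusted p were left out of its shares. The model code was tested on simulated data.

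The alternatives were RLE or no scaling, no filter, DESeq2 1.42.0, limma 3.58.1 voom with sample weights, a replicate block, 4 marker sums as covariates, and leaving out each library. The labels do not say that replicate numbers mark shared mice. Of 28 pairs of groups, same-numbered samples deviated together (every correlation over 0.1) only for spleen and tumor CD8 LCL161 (0.112, 0.125 and 0.165). The block changed no count there (0 and 0), while elsewhere it changed some, as given below. Below that cut, the own number was also the best match in every replicate for spleen CD4 and CD8 vehicle (0.041, 0.08 and 0.085), spleen and tumor CD8 vehicle, and spleen and tumor CD4 LCL161. It was so too for some pairs of unlike treatment, such as spleen CD4 LCL161 and spleen CD8 vehicle (0.081, 0.016 and 0.075). Whether mice were shared is therefore not settled.

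Members, gene lists and the comparisons were chosen with earlier results of these data known, and the split by length and the motif search were added after the data were seen. Named were a panel of members, up to 4 called members per complex and comparison with the smallest adjusted p, the 3 highest and lowest, the 3 with the smallest p where none passed, and up to 3 called genes per related list. The text gives part of these, and the values of 1 member, which the counts include, are not reported here. Sdhaf1 in spleen CD8 and Shmt2, Itgad, Siglech, Cox4i1 and Gabpa were named after their values were seen or for their overlaps. Coordinates, exon lengths and overlaps come from GENCODE M21 (GRCm38), with 84 members matched once, and promoters from RefSeq (GRCm38.p6).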

Additional observations from a re-analysis of the deposited data

How the results depend on the processing

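Numbers of members called, of 83, moved with the method. For LCL161 against vehicle, the 6 in spleen CD8 cells became 3 with RLE scaling, 10 without scaling, 1 without the filter, 14 with DESeq2, 70 with limma voom, 0 with marker covariates and 3 with a replicate block, and 0 to 7 when 1 library was left out. The 0 of the other groups became 5 (spleen CD4), 2 (tumor CD4) and 1 (tumor CD8) with DESeq2 and 3 (tumor CD8) with limma voom, and 0 to 2 in spleen CD4 with 1 library left out. For tumor against spleen, the 27 in CD4 vehicle cells became 15 without the filter, 21 with a replicate block and 4 to 31 with 1 library left out, the 10 in CD4 LCL161 cells became 18 with limma voom and 7 to 18, the 1 in CD8 vehicle cells became 5 with DESeq2 and 29 with limma voom, and the 0 in CD8 LCL161 cells became 1 without scaling, 3 with DESeq2, 13 with limma voom and 0 to 1. For CD8 against CD4, the 3 in spleen vehicle cells became 5 with limma voom and 1 to 4, the 7 in spleen LCL161 cells became 4 without scaling, 4 without the filter, 17 with limma voom and 0 to 8, the 1 in tumor vehicle cells became 0 without the filter, 2 with DESeq2, 3 with limma voom and 0 to 2, and the 2 in tumor LCL161 cells became 0 to 2. Marker covariates left 0 in every comparison. Marker sums differ between many of the groups compared, so that fit cannot separate group from markers, and no conclusion is drawn from its counts. The 0 for differences of effect became 1 with DESeq2 (CD4, tumor minus spleen) and 1 with limma voom (CD8, tumor minus spleen). The cause of these changes was not tested, save that fewer libraries give fewer degrees of freedom. Depth limits Ndufa4l2, Cox6b2 and Cox7a1, which rest on few counts, and the 3 libraries per group limit the rest.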

Other observations

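Coq8a, a kinase-like protein needed for the synthesis of coenzyme Q, the carrier between complexes I, II and III, was lower in tumor than in spleen. It stood at 18.3 ± 0.982 against 64.5 ± 5.41 CPM in CD4 vehicle cells (log2 -1.82 ± 0.29, adjusted p = 0.000374) and 31.9 ± 11.0 against 146.0 ± 65.6 CPM in CD4 LCL161 cells (SD, n = 3 each; -2.20 ± 0.29, adjusted p = 6.87e-05), both by edgeR's quasi-likelihood test. In CD8 vehicle cells Coq8a was also lower, at 10.7 ± 2.23 against 25.5 ± 4.82 CPM (-1.25 ± 0.29, adjusted p = 0.00575). In CD8 LCL161 cells the difference did not pass (27.6 ± 6.57 against 34.9 ± 5.7 CPM, adjusted p = 0.507).

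Cox4i1, the complex IV subunit that the symbol rule does not match, stood at 350 ± 3.46 CPM in spleen CD8 vehicle cells and 428 ± 59.9 with LCL161, and at 305 ± 5.38 in spleen CD4 vehicle and 395 ± 87.3 in tumor CD4 vehicle cells (SD, n = 3 each). Ndufb1-ps, left out by its symbol, stood at 63.2 ± 3.24 and 89.9 ± 18.1 CPM in spleen CD8 vehicle and LCL161 cells and at 66.9 ± 5.65 and 105.0 ± 15.1 CPM in spleen and tumor CD4 vehicle cells.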
